A study of Mus musculus with 2 samples.

Results

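The Hox cluster genes encode the homeodomain transcription factors that give cells their position along the body axis, and their transcripts were examined in cultured mouse primordial germ cells (PGCs). Members were all genes whose symbol is Hoxa, Hoxb, Hoxc or Hoxd followed by a paralogue number and that had a value in both libraries. There were 38 such genes among 23320 gene symbols present in both files. They comprised 10 Hoxa genes on chromosome 6, 10 Hoxb genes on chromosome 11, 9 Hoxc genes on chromosome 15 and 9 Hoxd genes on chromosome 2. Hoxa7 was left out of the comparisons, because the control library gives it only under a joint name with its neighbour Mira.

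PGCs are the embryonic precursors of eggs and sperm, and in this study they were sorted by Oct4-deltaPE-GFP fluorescence from E13.5 genital ridges of male and female embryos. The embryos came from MCH females mated with reporter males on a C57BL/6J background, so both libraries share that cross and that reporter. The Klf9-OE PGCs received a lentivirus that drives the coding region of Klf9, a zinc-finger transcription factor, from the CSII-EF vector. The control PGCs received a control lentivirus (the methods name empty and mcherry vectors, without saying which served for these libraries), and both were infected at an MOI of 5 and cultured for 1 day. The labels describe the medium as containing bFGF and the paper describes it as lacking bFGF. There was 1 RNA-seq library of each kind, so that no difference below has a replicate check, an SD or a test across cultures.

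Expression is given as FPKM, the number of fragments of a transcript relative to its length and to the mapped reads of the library; with single-end reads this equals RPKM. Each FPKM is followed by the bounds of the 95% interval that Cufflinks gave it. That interval covers the error of estimation within a library and not the difference between cultures. Log2 fold changes are differences in log2(FPKM + 0.1), control subtracted from Klf9-OE, and on this scale the change of weakly expressed genes is understated. In bulk RNA, fewer cells of a type and less RNA per cell cannot be told apart.

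The labels were first compared with the genes they imply. Klf9 itself had an FPKM of 2.27 (1.97 to 2.57) in the control library, and in Klf9-OE it stood at 80.8 (77.0 to 84.5). All 10 germ cell markers were above an FPKM of 1 in both libraries, with Dazl and Ddx4 the highest, and their summed FPKM was 1419 in control and 1250 in Klf9-OE. Of the 10, 9 were lower in Klf9-OE and 1 was higher, where 48.0% of all genes above 0 were higher. In 8 of the 10 the intervals were separate, beside 35% of all genes at an FPKM of at least 1. The median log2 fold change of the 10 was -0.25, beside -0.015 over all genes above 0. The 6 pluripotency markers summed to an FPKM of 706 and 593, with Pou5f1 the highest and Dppa5a in control and Utf1 in Klf9-OE the next. Markers of other cells of the ridge were present at low levels, and many tissues of the trunk are known to express Hox genes. The 15 gonad somatic markers summed to an FPKM of 43.8 in control and 57.0 in Klf9-OE. Of the 15, 11 were higher in Klf9-OE, beside 48.0% of all genes above 0. Col1a1 was the highest of the 15 in both libraries (9.09 and 12.5), followed by Inha in control (6.29) and by Amh in Klf9-OE (9.29). The 4 lower in Klf9-OE were Sox9, Nr5a1, Foxl2 and Fst. Of these only Sox9 had separate intervals, at 2.04 (1.76 to 2.31) in control and 1.09 (0.906 to 1.27) in Klf9-OE. Star, the cholesterol transporter of steroid-producing cells and 1 of the 11, was listed at 0 in control and at 2.39 in Klf9-OE. An exact 0 of this kind can be a failed estimate. The 6 mesonephros markers, led by Lhx1 and Pax8, summed to 5.69 and 6.36. The 6 endothelial markers summed to 23.0 and 31.5, most of it from Pecam1, at 16.8 and 24.2. Which cells held the Pecam1 RNA cannot be told from these libraries. Cdh5 stood at 1.995 and 5.09 and Erg at 3.05 and 1.33, and Emcn was listed at 0 in Klf9-OE. The 5 macrophage and blood markers summed to 4.39 and 5.40, with Cd68 at 3.69 and 4.11 and Csf1r at 0.307 and 1.18, while Adgre1, Ptprc and C1qa were lower in Klf9-OE. The sums of these 4 lists were higher in Klf9-OE, as was the summed Hox FPKM. By members, only the gonad somatic list had more genes higher than lower and a median log2 fold change above 0, at 0.45, and the medians of the mesonephros, endothelial and macrophage lists were -0.050, -0.050 and -0.35. Their part in the Hox values was not tested.

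Mammalian Hox genes lie in 4 clusters that arose from 1 ancestral cluster, and genes at the same place in different clusters form a paralogue group, numbered from 1 to 13. Low-numbered genes at the 3′ end of a cluster are used early and anteriorly, and high-numbered genes at the 5′ end late and posteriorly, an order called collinearity. Hox proteins bind DNA with PBC and MEIS or PREP cofactors, and Polycomb complexes keep the clusters silent whereas trithorax complexes keep them active. Germ cell specification in the mouse is known to include repression of the somatic Hox programme, in which Blimp1 takes part.

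The members share the homeobox, and its most conserved stretch shows how closely related the measured genes are and where their transcripts still differ. The stretch below covers 30 bases of coding sequence, 5′ to 3′, from GENCODE M21 transcripts on GRCm38, the same build as mm10. Capitals mark the 18 bases that encode tryptophan, phenylalanine, glutamine, asparagine, arginine and arginine in the third helix of the homeodomain, which lies in the major groove of DNA. The genes shown are 7 of the 8 with an FPKM of at least 1 in a library, the values of which follow.
Hoxb4 (chr11:96320191-96320220, + strand, exon 2 of 2): aagatcTGGTTCCAGAATCGGCGCatgaag
Hoxb7 (chr11:96289520-96289549, + strand, exon 2 of 2): aagatcTGGTTTCAGAACCGGCGCatgaag
Hoxd8 (chr2:74706660-74706689, + strand, exon 2 of 2): aaaatcTGGTTCCAGAACAGGAGAatgaaa
Hoxc9 (chr15:102984065-102984094, + strand, exon 3 of 3): aaaatcTGGTTTCAGAACCGGAGGatgaag
Hoxc12 (chr15:102938443-102938472, + strand, exon 2 of 2): aagattTGGTTCCAGAACCGGAGAatgaaa
Hoxb13 (chr11:96196155-96196184, + strand, exon 2 of 2): accatcTGGTTTCAGAACCGCCGGgtcaag
Hoxc13 (chr15:102927345-102927374, + strand, exon 2 of 2): accatcTGGTTCCAGAATCGACGCgtgaaa

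All 39 Hox genes of the annotation, Hoxa7 included, held a stretch that encodes these residues. The 39 genes had 36 distinct stretches and 30 distinct capital parts. Among the 28 pairs of the 8 genes with an FPKM of at least 1, the stretches differed at 2 to 10 of the 30 bases. Hoxb4 and Hoxb7 differed at 2 bases, and Hoxb13 and Hoxd8 at 10. The reads were 51 bases long, and a run of 51 bases identical in basic GENCODE transcripts of different Hox genes was found only between Hoxa6 and Hoxb4. It made up 0.243% of the 51-base windows of 1 of these genes at most. The values of the other members were therefore not shared between paralogues through identical 51-base runs.

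Hox transcripts were scarce in both libraries. Only 8 of the 38 members (21.1%) reached an FPKM of 1 in either library, whereas 53.9% of all genes did. The median FPKM over the 38 members was 0.204 in control and 0.196 in Klf9-OE, beside 1.26 and 1.30 over all genes. Summed over all members, Hox expression came to an FPKM of 23.0 (21.5 to 24.5) in control and 24.8 (23.3 to 26.2) in Klf9-OE, where the bounds combine the members' intervals as independent errors. The intervals overlapped, and the ratio was 1.08. The 6 members with the highest mean FPKM, which were Hoxb4, Hoxd8, Hoxb13, Hoxb7, Hoxd1 and Hoxc13, supplied 70.6% of the control sum and 72.1% of the Klf9-OE sum. Hoxa2, Hoxa6 and Hoxd12 were listed at 0 in both libraries, and an exact 0 in such a file can be a failed estimate.

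**Figure D1:**
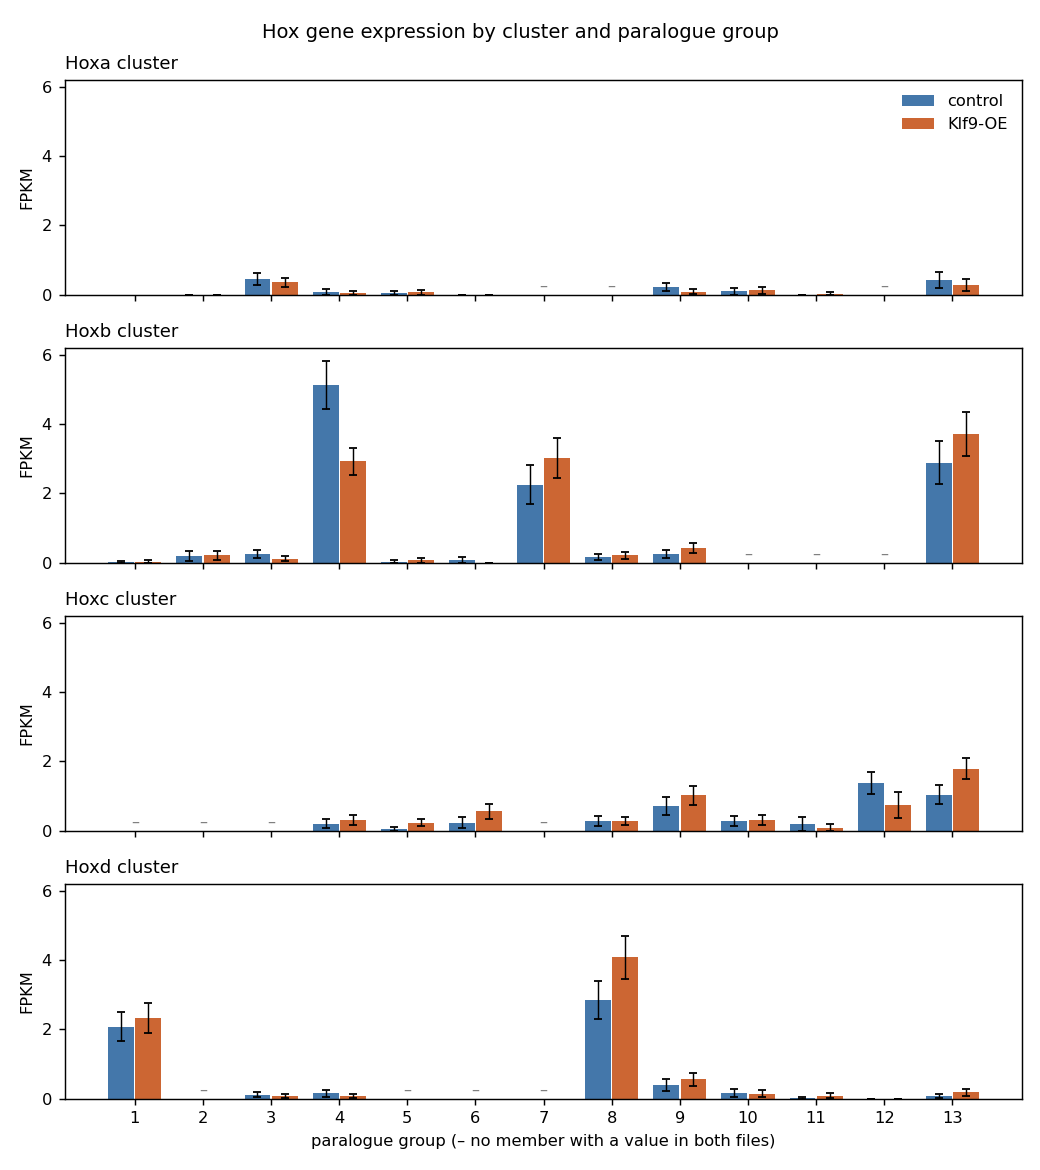
FPKM (y axis) of each Hox gene by paralogue group (x axis) in the Hoxa, Hoxb, Hoxc and Hoxd clusters, with control PGCs in blue, Klf9-OE PGCs in orange, the Cufflinks 95% interval as error bars, a dash where no member had a value in both files, and no bar where a value is 0 or not reported here. Hoxb4, Hoxb7, Hoxb13, Hoxd1 and Hoxd8 stand above an FPKM of 2 in both libraries, and the Hoxa genes shown stay below 1.

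Apart from Hoxc12 and Hoxc13, which lie side by side, no member at an FPKM of at least 1 had a neighbouring member at that level. Hoxb4, a group 4 gene that promotes the self-renewal of blood stem cells, had the highest control FPKM of any member, 5.12 (4.43 to 5.81). In Klf9-OE PGCs its FPKM was 2.92 (2.53 to 3.31), a log2 fold change of -0.79. The 2 intervals did not overlap, and Hoxb4 was the only member to be lower in Klf9-OE with separate intervals. Its neighbours in the cluster were far lower: Hoxb5 had an FPKM of 0.0215 and 0.0704, and Hoxb3 one of 0.251 and 0.115, in control and Klf9-OE. The control row of Hoxb4 came from a transcript that Cufflinks assembled in that library, and the Klf9-OE row was the reference gene model.

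That difference in gene model went with a difference in what an implied read was worth. The read number implied by the width of the interval was 218 for Hoxb4 in control and 225 in Klf9-OE. Over 4556 genes, the Klf9-OE library held a median of 1.22 implied reads per control read at equal FPKM. After division by that depth, the Klf9-OE reads of Hoxb4 were 0.845 of the control reads, whereas its FPKM was 0.571 of the control FPKM. An implied read counted for an FPKM of 0.0235 in control and 0.0130 in Klf9-OE. At the control value per implied read, and after correction for depth, the Klf9-OE reads of Hoxb4 would come to an FPKM of 4.33. An implied read number stands for reads only if the interval holds counting error alone. That was not tested for assembled rows such as Hoxb4 in control, and the 4.33 depends on it. Of 33 members above 0 in both libraries, 29 had a read ratio within 10% of the FPKM ratio, and Hoxb4, Hoxc12, Hoxa9 and Hoxd11 did not. The part of the gene model in the FPKM difference of Hoxb4 was not tested.

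Hoxd8, a central-group gene of the Hoxd cluster, had a control FPKM of 2.84 (2.29 to 3.40). It reached 4.08 (3.47 to 4.69) in Klf9-OE PGCs, the highest FPKM listed for a member there. The intervals did not overlap, and the log2 fold change was 0.51. By its implied reads at the control value per read, Hoxb4 would stand at 4.33. Both Hoxd8 rows were assembled by Cufflinks, with the same start and end in both libraries. The other members of group 8 were lower, with Hoxb8 at an FPKM of 0.164 in control and 0.219 in Klf9-OE and Hoxc8 at 0.275 and 0.282.

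Hoxc13, known for its need in hair and nail formation, stood at an FPKM of 1.04 (0.776 to 1.31) in control and 1.79 (1.48 to 2.10) in Klf9-OE. It was 1.72-fold higher in Klf9-OE (0.73 on the log2 scale), and its intervals were separate. Hoxc13 was the only member at an FPKM of at least 1 with separate intervals and the reference gene model in both libraries. The implied reads were 61.1 and 134.

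Hoxb13, the gene at the 5′ end of the Hoxb cluster and a regulator of prostate and tail development, had an FPKM of 2.88 (2.26 to 3.50) in control and 3.70 (3.07 to 4.33) in Klf9-OE. Hoxb7 stood at 2.25 (1.69 to 2.82) and 3.02 (2.44 to 3.60). Hoxd1, which patterns pain-sensing neurons in the mouse, stood at 2.08 (1.65 to 2.51) and 2.33 (1.91 to 2.76). All 3 genes were higher in Klf9-OE, by 0.35, 0.41 and 0.16 on the log2 scale, but the intervals of each overlapped. Hoxc9, a determinant of thoracic motor neurons, reached an FPKM of 1 only in Klf9-OE, with 0.719 (0.457 to 0.982) in control and 1.02 (0.738 to 1.31) in Klf9-OE, and its intervals overlapped.

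Within the control library, Hoxb4 stood above the next member, Hoxb13, with separate intervals. From Hoxb13 the order ran through Hoxd8, Hoxb7, Hoxd1 and Hoxc12 to Hoxc13, and each gene in this order overlapped the next. In Klf9-OE PGCs the order was Hoxd8, Hoxb13, Hoxb7, Hoxb4, Hoxd1 and Hoxc13, again with each overlapping the next, and Hoxc13 stood apart from Hoxc9 below it. The place of Hoxb4 in both orders rests on its gene model. In Klf9-OE PGCs a value of 4.33 would put it first, but only if the implied reads stand for reads. In control its separate interval comes from an assembled row, and no control value under the reference gene model was given. Across the 38 members, the values of the libraries had a Pearson correlation of 0.946 on the log2(FPKM + 0.1) scale and a Spearman correlation of 0.905, which is a description, since genes of the same libraries are not replicates.

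Hoxc12 gave a further case in which the gene models differed. Its FPKM was 1.38 (1.07 to 1.70) in control and 0.745 (0.373 to 1.12) in Klf9-OE, and these intervals overlapped. The control locus, assembled by Cufflinks, ran from 102936853 to 102940292 on chromosome 15, and the Klf9-OE locus ended 1775 bases earlier, at 102938517. RefSeq places the end of Hoxc12 at 102938609. Over the stretch beyond, the Klf9-OE library had 5 loci without a gene name between 102938758 and 102940634, with an FPKM of 3.07 to 36.8.

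Counting implied reads over the whole region reversed the direction. The Klf9-OE library held 16.0 implied reads in Hoxc12 and 114 in the 5 unnamed loci, together 130. In control the Hoxc12 locus held 75.4 implied reads and an unnamed locus beside it 14.7, together 90.1. After correction for depth the implied Klf9-OE reads of the region were 1.18 times those of control. Whether implied reads stand for reads at these assembled loci was not tested. The FPKM of Hoxc12 thus referred to loci of different length, and the libraries give no value for the same transcript.

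**Figure D2:**
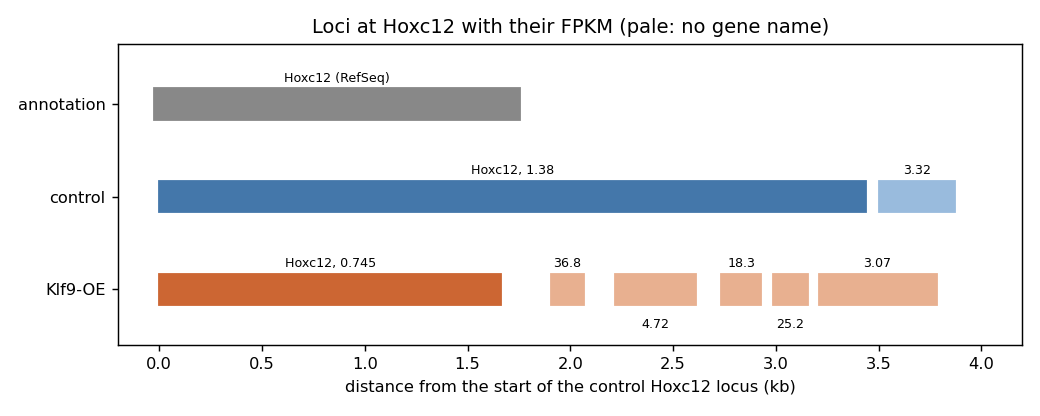
Loci at Hoxc12 by distance in kb from the start of the control locus (x axis), as annotated by RefSeq (grey), as in the control file (blue) and as in the Klf9-OE file (orange), with the FPKM written at each locus and unnamed loci in pale colours. The control Hoxc12 locus spans the stretch that the Klf9-OE file divides between Hoxc12 and 5 unnamed loci.

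Among the 27 members above 0 and below an FPKM of 1 in both libraries, Hoxc5 was the only member with separate intervals. Hoxc5 lies between Hoxc4 and Hoxc6 and belongs to paralogue group 5, and its FPKM was 0.0575 (0 to 0.115) in control and 0.236 (0.127 to 0.344) in Klf9-OE. That was 4.10-fold higher in Klf9-OE, a log2 fold change of 1.09, on 4 and 18.9 implied reads. Hoxc6, next to it and active in brachial motor neurons, stood at 0.235 (0.0785 to 0.392) and 0.558 (0.338 to 0.777), 2.37-fold higher with intervals that overlapped. Hoxc4, on the other side, stood at 0.204 in control and 0.301 in Klf9-OE.

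In all, 4 of 35 members above 0 had intervals that did not overlap. Over all genes the share was 25.6%. The members higher in Klf9-OE in this way were Hoxd8, Hoxc13 and Hoxc5, beside a background of 11.2% of all genes, and the member lower was Hoxb4, beside 14.4%. By level, 3 of 8 members at an FPKM of at least 1 had separate intervals, beside 35% of all such genes, and 1 of 27 members below 1, beside 6.47%. With only the 32 members whose rows followed the reference gene model in both libraries, Hoxc13 and Hoxc5 remained, 2 of 32 beside 15.5% of all such genes. Both were higher in Klf9-OE, where 7.42% of such genes were higher with separate intervals and 8.09% lower. With the Klf9-OE interval widened by the square root of 2, Hoxb4 and Hoxc13 had separate intervals, beside 20.4% of all genes. The Hox counts were thus below or near the shares of all genes.

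At least 2-fold differences were found only in members with very low FPKM. Hoxa11, Hoxb5, Hoxc5, Hoxc6, Hoxd11 and Hoxd13 had at least a 2-fold higher FPKM in Klf9-OE, 6 of 35 beside 9.82% of all genes. Hoxa9, Hoxb3, Hoxb6, Hoxc11 and Hoxd4 had at least a 2-fold lower one, 5 of 35 beside 9.43%. All 11 genes were below an FPKM of 1 in both libraries, and among all genes at that level 21.8% differed as much upward and 20.9% downward. The Hox counts of 6 and 5 of 27 were near these shares. None of the 8 members at an FPKM of at least 1 was 2-fold higher or lower, where 3.93% and 3.79% of all genes at that level were.

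Behind these ratios stood few reads. Hoxa11, a gene of forelimb, kidney and uterus, was listed at 0 in control and had an FPKM of 0.0286 (0 to 0.0781) in Klf9-OE, on 1.33 implied reads. Hoxb6 had an FPKM of 0.0650 (0 to 0.157) in control, on 1.99 implied reads, and was listed at 0 in Klf9-OE. Hoxd11, a partner of Hoxa11 in the same tissues, stood at 0.0224 (0 to 0.0604) and 0.0935 (0.0332 to 0.154), and Hoxd13, needed for digits and genital tubercle, at 0.0797 (0.00841 to 0.151) and 0.183 (0.0851 to 0.281). In each of these genes the intervals overlapped or 1 library was listed at 0, so that no difference was detectable at this depth.

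On the lower side, Hoxa9, a gene of blood progenitors and of the reproductive tract, had an FPKM of 0.216 (0.107 to 0.325) in control and 0.0835 (0.0145 to 0.153) in Klf9-OE. Hoxb3 stood at 0.251 (0.139 to 0.363) and 0.115 (0.0430 to 0.187), with 20.1 and 10.2 implied reads. Hoxd4 stood at 0.154 (0.0546 to 0.254) and 0.0758 (0.0139 to 0.138). These pairs of intervals overlapped, as did those of Hoxc11, with 0.204 (0 to 0.409) and 0.0837 (0 to 0.202). Over all members above 0, the implied reads ran from 1.00 to 218 with a median of 11 in control, and from 1.33 to 225 with a median of 15.0 in Klf9-OE. Members with fewer than 10 implied reads numbered 16 of 34 in control and 14 of 34 in Klf9-OE. Nearly all whole read numbers in Klf9-OE were even, as if each read had been entered in a pair. The Klf9-OE read numbers would then be too high, and 22 of 34 members there had fewer than 20.

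**Figure D3:**
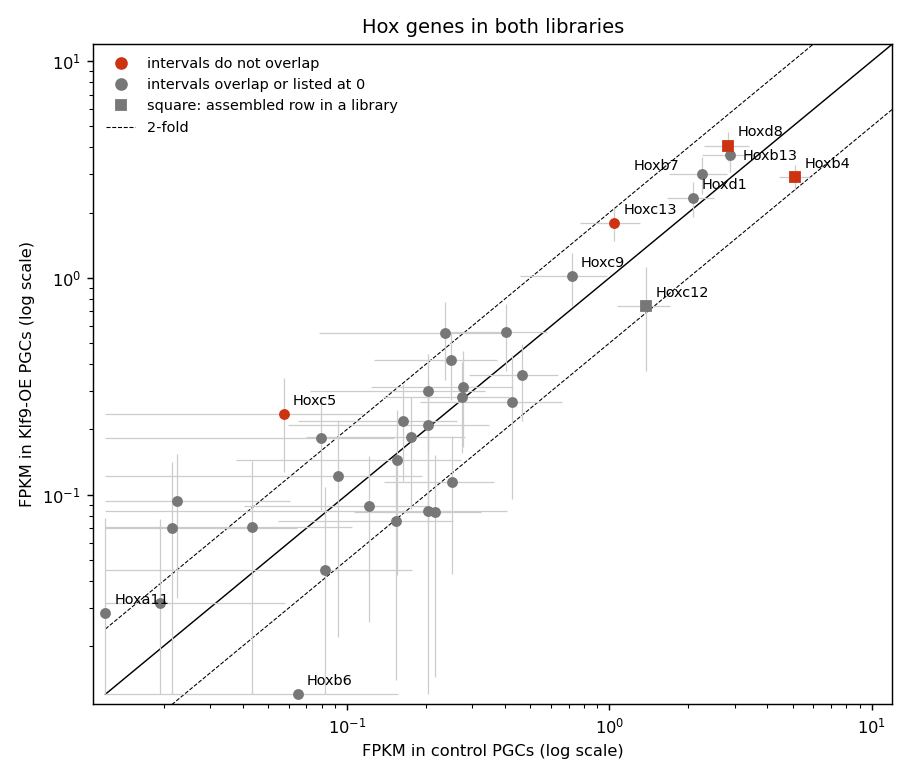
FPKM of each Hox gene in control PGCs (x axis) and in Klf9-OE PGCs (y axis), both log scales, with the Cufflinks 95% interval as grey bars, 0 drawn near the lower or left edge, red for intervals that do not overlap and squares for rows assembled by Cufflinks in a library. The solid line marks equal FPKM and the dashed lines a 2-fold difference, beyond which only genes below an FPKM of 1 lie.

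Taken by direction alone, 23 members were higher in Klf9-OE, 12 were lower and 3 were listed at 0 in both. That was 65.7% higher of the 35 above 0, beside 48.0% of all genes above 0. The median log2 fold change over the 35 members above 0 was 0.16, beside -0.015 over all 18742 genes above 0. Of the 27 members below an FPKM of 1 in both libraries, 17 were higher (63.0%, beside 52.5% of all genes at that level) and 10 lower. Their median log2 fold change was 0.14, beside 0.037 over all genes at that level. Rescaling the Klf9-OE values to the same sum would shift every gene by 0.062 on the log2 scale.

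By cluster, the Hoxa genes were the lowest. The 10 Hoxa genes lie within 105.5 kb on chromosome 6 and summed to an FPKM of 1.50 (1.14 to 1.86) in control and 1.16 (0.867 to 1.45) in Klf9-OE. Hoxa3, a gene of neck and thymus development, was the highest of them at 0.466 (0.293 to 0.639) and 0.356 (0.218 to 0.494), followed by Hoxa13 at 0.426 (0.190 to 0.662) and 0.268 (0.0951 to 0.442). Hoxa10, a gene of the uterus and male ducts, stood at 0.0928 and 0.122. Of the Hoxa genes, 4 were higher and 4 lower in Klf9-OE, and the intervals of each overlapped.

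The joint Hoxa7 and Mira row of the control library ran from 52214492 to 52218573 on chromosome 6, with an FPKM of 1.10 (0.642 to 1.57) and 22.8 implied reads. The Klf9-OE library split the same stretch, with Hoxa7 at 0.341 (0.188 to 0.493) and Mira at 1.00 (0.555 to 1.45). Hoxa7 thus had no control value of its own. The joint row in control and Mira in Klf9-OE each stood above all 10 Hoxa members of the same library.

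The 10 Hoxb genes lie within 173.9 kb on chromosome 11 (96194361 to 96368253) and summed to an FPKM of 11.2 (10.1 to 12.3) in control and 10.7 (9.73 to 11.7) in Klf9-OE, with overlapping intervals. That was 48.8% of the Hox sum in control and 43.3% in Klf9-OE. Without Hoxb4 the direction turned, with sums of 6.11 and 7.79, a log2 fold change of 0.35 in place of -0.067, and shares of 34.2% and 35.7% of the Hox sum without it. Hoxb9 stood at 0.250 (0.126 to 0.373) and 0.418 (0.273 to 0.564), and Hoxb2, a hindbrain gene, at 0.204 and 0.209. Hoxb1 was almost silent, at 0.0194 and 0.0318.

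The 9 Hoxc genes, within 115.7 kb on chromosome 15 (102921131 to 103036852), summed to an FPKM of 4.40 (3.79 to 5.01) in control and 5.33 (4.66 to 5.998) in Klf9-OE. The intervals of these sums overlapped. Of the Hoxc genes, 7 were higher in Klf9-OE and Hoxc11 was lower, and Hoxc12, listed lower, had rows of different length. Without Hoxc12 the Hoxc sums were 3.01 (2.50 to 3.53) and 4.58 (4.03 to 5.14), and their intervals did not overlap. With the Klf9-OE interval widened its lower bound was 3.80, and they stayed separate. Hoxc10, a gene of the lumbar level, stood at 0.276 (0.123 to 0.429) and 0.313 (0.166 to 0.461).

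The 9 Hoxd genes, within 96.8 kb on chromosome 2 (74668310 to 74765142), summed to an FPKM of 5.86 (5.11 to 6.61) in control and 7.56 (6.77 to 8.35) in Klf9-OE. The log2 fold change was 0.36, and these intervals did not overlap but did with the Klf9-OE interval widened, whose lower bound was then 6.45. Hoxd8, which also lost its separate intervals there, supplied most of the difference, since without it the sums were 3.01 and 3.48 with overlapping intervals. Hoxd1, at the 3′ end of the cluster, and Hoxd8 were the 2 Hoxd genes above an FPKM of 1, and the genes between and beyond them were far lower. Hoxd9 stood at 0.402 (0.227 to 0.578) and 0.565 (0.373 to 0.757), Hoxd3 at 0.121 and 0.0883 and Hoxd10 at 0.154 and 0.145.

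By paralogue group, the anterior genes (groups 1 to 3) summed to an FPKM of 3.32 in both libraries, or to 1.24 and 0.984 without Hoxd1. The central genes (groups 4 to 8) summed to 11.5 (10.4 to 12.6) in control and 11.9 (10.9 to 12.9) in Klf9-OE. Without Hoxb4 these sums were 6.40 (5.54 to 7.25) and 8.96 (8.04 to 9.87), separate also with the Klf9-OE interval widened. Without Hoxd8 they were 8.67 and 7.80, with overlapping intervals. The posterior genes (groups 9 to 13) summed to 8.15 (7.24 to 9.06) and 9.56 (8.63 to 10.5), with overlapping intervals. Without Hoxc12 they were 6.77 (5.91 to 7.62) and 8.82 (7.96 to 9.68), separate but not with the Klf9-OE interval widened. Central genes made up 50.1% of the Hox sum in control and 48.0% in Klf9-OE, and posterior genes 35.5% and 38.6%. Without Hoxb4 both shares turned, with central genes at 35.8% and 41.0% and posterior genes at 45.6% and 43.8%.

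Single paralogue groups differed in different directions. Group 4 summed to an FPKM of 5.56 (4.84 to 6.28) in control and 3.35 (2.92 to 3.77) in Klf9-OE, nearly all of it Hoxb4. Group 5 summed to 0.122 (0.0279 to 0.217) and 0.377 (0.230 to 0.525), and all 3 of its genes were higher. Group 8 summed to 3.28 (2.70 to 3.86) and 4.58 (3.95 to 5.21), with all 3 genes higher. Group 13 summed to 4.43 (3.71 to 5.15) and 5.94 (5.21 to 6.67), with Hoxb13, Hoxc13 and Hoxd13 higher and Hoxa13 lower.

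The intervals of these 4 group sums, out of 13 groups, did not overlap between libraries, and no share over all genes was available for such sums. Without Hoxc5 the group 5 sums were 0.0649 in control and 0.142 in Klf9-OE, and without Hoxd8 those of group 8 were 0.439 and 0.501. With the Klf9-OE interval widened, only group 4 of these 4 kept separate intervals. That group rests on Hoxb4, whose rows followed different gene models. All 3 genes of group 3, Hoxa3, Hoxb3 and Hoxd3, were lower in Klf9-OE, with sums of 0.838 (0.616 to 1.06) and 0.559 (0.392 to 0.727).

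The kit used for the libraries does not mark the strand, and the GENCODE span of 13 of the 38 members overlaps a gene on the other strand. Reads of a Hox gene and its antisense partner cannot be told apart where they overlap. Among these were Hoxd8, Hoxa3, Hoxb3, Hoxb5, Hoxb6, Hoxa11 and Hoxd3, whereas Hoxb4, Hoxb7, Hoxb13, Hoxc9, Hoxc12, Hoxc13 and Hoxd1 had no such partner. The GENCODE span of 15 members overlaps another gene on the same strand. Hoxc5 is one of them, and its span overlaps that of Hoxc6, though the measured loci of Hoxc5 and Hoxc6 lie apart. Of the noncoding RNAs of the clusters, 16 had a value in both libraries and 7 were above 0 in at least 1. Hotair was at an FPKM of 0.0180 in control and listed at 0 in Klf9-OE, and Haglr of the Hoxd cluster stood at 0.368 (0.205 to 0.530) and 0.450 (0.294 to 0.605). Hotairm1 was listed at 2.39 in control with an upper bound of 13757, which is no usable value, and at 0 in Klf9-OE. The microRNA gene Mir196a-1 was listed at 0 in control and at an FPKM of 30.6 (0 to 73.9) in Klf9-OE, on 1.99 implied reads over a very short gene.

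Klf9 belongs to the Sp and Krüppel-like factors, which bind GC boxes and CACCC motifs, so the promoters of the members were read for both. RefSeq promoters of GRCm38.p6 were matched for 22 of the 39 genes, as 24 promoters of 250 bases before the start. The GC box (GGGCGG, or CCGCCC for the other strand) was in 10 of 24 (41.7%), beside 32.7% of 32851 promoters of all genes. The CACCC motif (CACCC, or GGGTG for the other strand, where a match may overlap a GC box) was in 15 of 24 (62.5%), beside 52.0%. A match is a run of letters and not a bound site.

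The promoters of the 2 genes with the highest FPKM and separate intervals are shown, in lower case with each match in capitals, 5′ to 3′.
Hoxb4 (GRCm38.p6, chr11:96318017-96318266, + strand): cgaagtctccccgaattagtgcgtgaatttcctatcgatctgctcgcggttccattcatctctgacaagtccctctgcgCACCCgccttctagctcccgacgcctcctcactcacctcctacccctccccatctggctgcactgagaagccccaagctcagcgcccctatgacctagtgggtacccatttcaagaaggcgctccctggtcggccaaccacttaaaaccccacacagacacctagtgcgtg
Hoxd8 (GRCm38.p6, chr2:74704365-74704614, + strand): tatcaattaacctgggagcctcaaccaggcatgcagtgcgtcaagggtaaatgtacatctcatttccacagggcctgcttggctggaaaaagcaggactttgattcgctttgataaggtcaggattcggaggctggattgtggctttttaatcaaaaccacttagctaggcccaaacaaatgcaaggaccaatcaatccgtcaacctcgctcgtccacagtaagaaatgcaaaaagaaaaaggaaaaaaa

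Hoxb4 held 1 CACCC motif and no GC box in this window, and Hoxd8 held neither. The absence says only that these letters are not in these 250 bases. GC content was 58% in the Hoxb4 window and 44.4% in that of Hoxd8.

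The genes that act with or upon Hox genes were taken from lists and are given by count. Of the 4 PBC cofactors and 5 MEIS and PREP cofactors, none was 2-fold higher or lower, and the medians were -0.14 and -0.20 on the log2 scale. Pbx2 had an FPKM of 48.2 (45.9 to 50.6) in control and 39.9 (38.6 to 41.3) in Klf9-OE, and Pbx3 one of 38.6 (36.6 to 40.5) and 42.4 (40.5 to 44.3). Pknox1 stood at 6.59 and 6.73, and Meis1 at 2.29 (1.92 to 2.67) and 1.58 (1.32 to 1.84). Meis2 stood at 0.636 (0.487 to 0.784) and 0.966 (0.785 to 1.15), so that Meis1 and Meis2 had separate intervals in different directions. The FPKM of Pbx2, Pbx3 and Pknox1 was above that of every Hox gene in both libraries.

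Of 11 trithorax-group activators of Hox genes, none was 2-fold higher or lower, and the median log2 fold change was 0.037. In 4 of the 11 the intervals were separate, with Kmt2a, Kmt2d and Kdm6b higher in Klf9-OE and Psip1 lower. Psip1, which ties the trithorax enzymes to chromatin, stood at an FPKM of 121 and 110, and Wdr5, a core subunit, at 106 and 109. Of 14 Polycomb repressors, with a median of 0.0041, only Ring1 differed 2-fold, at 7.77 (6.06 to 9.49) in control and 3.71 (3.18 to 4.23) in Klf9-OE. Ring1 encodes a ubiquitin ligase of the first Polycomb complex, whose partner gene Rnf2 stood at 34.1 and 34.5. Ezh1, at 37.3 (35.3 to 39.2) and 27.5 (26.6 to 28.4), and Pcgf2, at 18.05 (16.4 to 19.6) and 12.02 (11.1 to 12.97), were also lower with separate intervals. These 3 of 14 Polycomb genes, and the 4 of 11 trithorax genes, stood beside 35% of all genes at an FPKM of at least 1. Eed and Phc1, the highest of this list with Eed at 65.2 and 68.0 and Phc1 at 61.7 and 61.4, had overlapping intervals.

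Retinoic acid is an inducer of 3′ Hox genes and of meiosis in germ cells. Of 12 genes of its response, 9 were lower in Klf9-OE and 3 higher, where 48.0% of all genes above 0 were higher. The median log2 fold change was -0.24, beside -0.015 over all genes above 0. Crabp2, a retinoic acid binding protein, stood at an FPKM of 89.6 (83.9 to 95.4) in control and 39.9 (37.3 to 42.6) in Klf9-OE. Stra8, the meiotic gene, stood at 120 (114 to 125) and 79.4 (75.7 to 83.0). Rara, a receptor, was at 16.1 in control and listed at 0 in Klf9-OE, and such an exact 0 can be a failed estimate. Dhrs3 was at 0.602 (0.315 to 0.889) and 1.26 (0.899 to 1.63). Among the Hox genes of groups 1 to 3 the lower genes were those of group 3, and Hoxd1 and Hoxb1 were slightly higher with overlapping intervals. In group 4, 3 of 4 genes were lower, Hoxb4 and Hoxd4 among them, and 1 was higher. Only Hoxb4 had separate intervals there, and its rows followed different gene models.

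The Cdx genes, which activate trunk and tail Hox genes, were nearly silent apart from Cdx1, at an FPKM of 1.22 (0.882 to 1.56) in control and 1.54 (1.19 to 1.89) in Klf9-OE. The next in that list in Klf9-OE was Pdx1, with 0.101 and 0.275. The Evx genes, which lie at the 5′ ends of the Hoxa and Hoxd clusters, were at 0.231 and 0.368 for Evx1 and at 0 and 0.0486 for Evx2, like most of the Hox genes beside them.

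**Figure D4:**
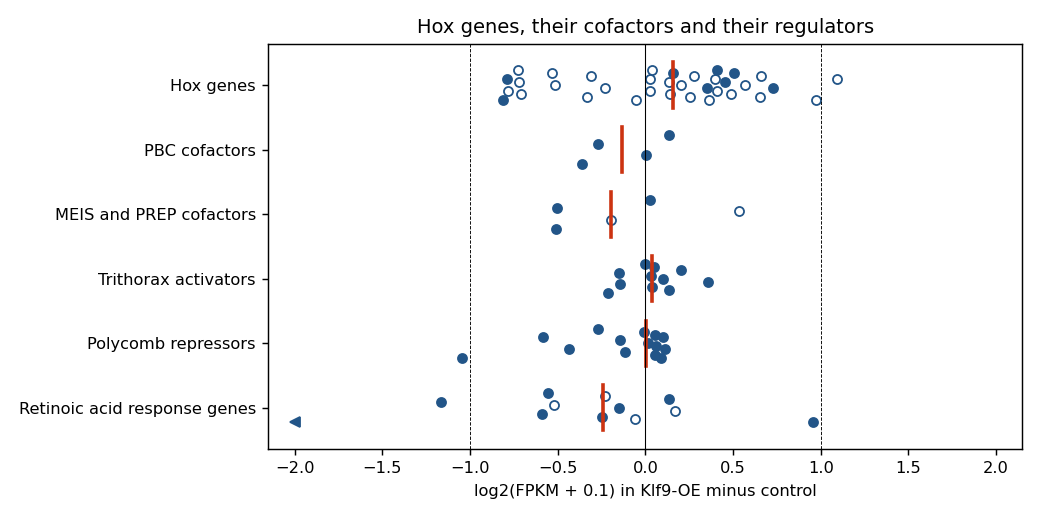
Difference of log2(FPKM + 0.1), Klf9-OE minus control (x axis), of each Hox gene above 0 and of the genes of 5 lists (rows), with filled points for an FPKM of at least 1 in a library, open points below 1, red bars at the medians, dashed lines at 2-fold and an arrow for Rara beyond the axis. The Hox genes spread from -0.81 to 1.09, with a median of 0.16, and the trithorax and Polycomb medians lie near 0.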

How the data were processed

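RNA-seq of 1 control and 1 Klf9-OE library of E13.5 PGCs was used. Single-end reads of 51 bases were aligned by the authors with TopHat2 and Bowtie against mm10. The deposited values are the FPKM that Cufflinks estimated for every locus, with the bounds of a 95% interval. Versions are not given in the sources used here. Cuffdiff results were not used. The library preparation was TruSeq RNA v2.

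FPKM was summed over rows of the same symbol. Each of the 38 members had a single row in both files. Ratios used no pseudocount, and log2 fold changes one of 0.1. Bounds of sums combined the members' distances to the upper and lower bounds in quadrature. The read number behind a value was taken as the square of 2 times the FPKM divided by the distance to its upper bound. This gives reads only where the interval holds counting error alone. The assembled control row of Hotairm1, at an FPKM of 2.39, came to 1.2e-07 implied reads, so the rule does not hold for every row. The files give no read totals, so depth is known only as the ratio of implied reads. Rows named by Cufflinks identifiers were taken as assembled, and the others as reference gene models.

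Every member at an FPKM of at least 1, with separate intervals or listed at 0 in only 1 library is named, as are, from each list, the 2 highest genes and those at an FPKM of at least 1 that differed 2-fold. The members and lists were chosen with earlier results of these data known. Some values and sequences are not reported here. No test was possible with 1 library per condition. On simulated data only the read numbers and the calls of 2-fold differences were checked. The simulated bounds were built by the formula later inverted, so the recovery of read numbers could not fail. Interval overlap, sums, the depth correction and assembled rows were not checked in this way. The software was Python 3.11.15, matplotlib 3.10.9, scipy 1.17.1, pandas 2.3.3 and numpy 2.4.6.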

Additional observations from a re-analysis of the deposited data

Results flagged for a closer look

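A locus without a gene name in the Hoxb cluster held a signal outside the comparison of genes. In Klf9-OE PGCs it ran from 96264750 to 96269072 on chromosome 11, with an FPKM of 73.1 (25.9 to 120) on 9.59 implied reads, and no control locus above 0 overlapped it. It overlaps Mir196a-1. Its FPKM was higher than that of any Hox gene in either library, on fewer reads than stand behind Hoxb8. A difference between conditions was not tested.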

How the results depend on the processing

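Log2 values were compared with the range that the intervals of both libraries allow, which is wide, and counts with 1.5 times the count. Of 154 alternatives, 130 stayed within these limits, among them all 32 for the 8 single Hox genes at an FPKM of at least 1, and 24 did not. Those 32 were pseudocounts and rescalings only, so they do not bear on the gene models of Hoxb4 and Hoxc12. Within the limits, a pseudocount of 1 still took Hoxc12 from -0.81 to -0.45 and Hoxc9 from 0.45 to 0.23. The median over Hox genes, 0.16, ran from 0.038 with a pseudocount of 1 to 0.38 at an FPKM of at least 1, and was 0.36 with a pseudocount of 0.01. Without the highest member, the Hoxc sum went from 0.27 to 0.075 and the anterior sum from -0.00015 to -0.30. The count of members at least 2-fold higher was 6 and became 1 with a pseudocount of 0.1, 0 with a pseudocount of 1, 0 at an FPKM of at least 1 and 3 at a ratio of at least 4. The count at least 2-fold lower was 5 and became 0, 0, 0 and 1. The count of separate intervals was 4. It became 2, Hoxb4 and Hoxc13, with the Klf9-OE interval widened by the square root of 2. That width would hold if each read had been entered in a pair, and 20 of the 21 read numbers of Klf9-OE members within 0.06 of a whole number were even, against 7 of 20 in control. The same widening, here chosen after seeing the data, left 1 of 4 paralogue groups and 0 of 1 clusters with separate intervals of the sum. The central sums without Hoxb4 and the Hoxc sums without Hoxc12 stayed separate under it. With reference gene models only, an alternative chosen after seeing the data, the count of members with separate intervals became 2, Hoxc13 and Hoxc5. With both conditions it was 1, Hoxc13. Members at an FPKM of at least 1 numbered 5 in place of 8 with reference gene models only. The log2 fold change of the Hoxb sum went from -0.067 to 0.35, and that of the central sum from 0.044 to 0.48, without Hoxb4. Of all genes of the lists, 19 differed 2-fold, and 6 with a pseudocount of 1. No paired analysis was possible because there was 1 library per condition. For the same reason no library could be left out, and low read numbers limit all members below an FPKM of 1.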

Other observations

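Transcription without a gene name lay next to Hoxb13. In control, a locus from 96198862 to 96203497 on chromosome 11 had an FPKM of 17.1 (13.2 to 21.1) on 76.9 implied reads. In Klf9-OE, a locus from 96198861 to 96201469 had an FPKM of 11.6 (10.02 to 13.2) on 208 implied reads, and the intervals met at 13.2. The Klf9-OE file split the stretch into 3 unnamed loci with 240.02 implied reads in all, beside 77.4 in 2 loci of control. After correction for depth the implied reads were 2.54 times those of control, opposite in direction to the FPKM. The control locus was assembled and overlapped an unnamed locus at an FPKM of 0.905 (0 to 3.39) on 0.530 implied reads. Implied reads need not be read counts at such loci, so no direction can be taken from them. The FPKM values of 17.1 and 11.6 were above that of any Hox gene in the same library. The named neighbour Gm11538 stood at 1.27 (0.944 to 1.59) and 1.63 (1.31 to 1.94), with overlapping intervals. At the 5′ end of the Hoxa cluster, beside Hoxa13, the control file had 1 unnamed locus at an FPKM of 2.98 (1.18 to 4.77) and the Klf9-OE file 2, at 7.68 (2.72 to 12.6) and 2.54 (1.34 to 3.74).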
